A study of Mus musculus with 6 samples.

Results

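The genes described here lie along mouse chromosome 14 on the distal side of the locus of 2 deleted microRNAs, microRNA-15a and microRNA-16-1. They were chosen as the genes whose GRCm38 start lies between 62 and 80 Mb of that chromosome and that have an array probe set annotated to exactly 1 symbol. Of 158 such genes, 147 were kept, of the 19938 genes measured in all. Left out were 5 genes of small RNAs or of the deleted locus itself and the 6 genes Gfra2, Mtmr9, Rcbtb2, Lpar6, Dnajc15 and Epsti1. Each of these 6 had a smaller p-value in the genotype comparison than every gene that was kept, so the rule acted as if it had used the measured values. Just outside it lay Dnajc15 with a difference of -0.78 (limma unadjusted p = 0.000916), and just inside it Ccdc122 with 0.75 (limma unadjusted p = 0.00167) and Cysltr2 with -0.79. Counts over the 147 genes are therefore descriptions of what remained after the strongest differences of the stretch had been set aside.

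Expression was measured on 6 Affymetrix mouse gene arrays, 1 per sample, hybridised with biotin-labelled total RNA. The cells were natural killer (NK) cells, lymphocytes that kill infected or transformed cells, sorted from the spleen as YFP+, CD27+, NK1.1+ and CD3-. The mice of both groups were labelled C57Bl/6 and were 8 to 12 weeks old, and cells were sorted directly after the spleens were taken. RNA of 3 arrays came from mice with the label 15a/16-1FKO, for which the text says knockout, and RNA of the other 3 from Ctrl mice. The sources used here do not give the promoter that drives recombination, the origin of the YFP or the number of mice per array. The arrays of a group are described as technical replicates. The sex-linked transcripts given below contradict this for both groups, since arrays of the same RNA would share them. In the knockout, replicate 1 had the lowest Xist and the highest Y-linked values, with Uty at 5.82 beside 3.77 and 3.20 in replicates 2 and 3. The spread within each group therefore includes differences between RNA samples. Whether some arrays of a group shared an RNA sample is not known.

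The values were log2 expression levels, and each gene was represented by its brightest probe set. Background was taken as a log2 level of 4.13, which 95% of 1027 olfactory receptor probe sets did not reach. The probe set of Mir15a read 4.37, 3.53 and 3.43 in the knockout and 7.14, 6.02 and 6.69 in Ctrl arrays, which followed the labels. That of Mir16-1 read 2.61, 2.68 and 3.00 in the knockout and 3.19, 3.20 and 3.77 in Ctrl. Its difference was -0.63 (SE 0.19, limma unadjusted p = 0.00922, adjusted p = 0.999). All values of Mir16-1 lay below background, so this probe set says little about the loss of the second microRNA. All 10 NK markers on the list lay above background, with array means over the list between 9.77 and 10.07 in the knockout and between 9.85 and 9.90 in Ctrl. Of 8 macrophage, monocyte and dendritic cell markers 6 lay below background, as did 2 of 6 B cell markers (Ms4a1 and Cd79a) and 4 of 7 T cell markers, while Cd3d, Cd3e and Cd3g, whose product was gated out at the surface, lay above it. The array means of the B cell list ran from 4.06 to 4.27 in the knockout and from 4.03 to 4.52 in Ctrl. In such bulk samples fewer cells of a type and less RNA per cell cannot be told apart. Of 6 neutrophil markers 5 lay above background, and their array means ran from 4.88 to 5.83 in the knockout and from 4.79 to 5.37 in Ctrl. Of 5 erythroid markers 2 lay above background, and of 5 platelet markers 2, with array means of at most 4.15. Xist, the transcript that marks an inactive X chromosome, read 7.56, 8.58 and 8.84 in the knockout and 9.65, 3.89 and 8.86 in Ctrl, and the Y-linked Eif2s3y read 7.88, 6.60 and 6.18 against 2.33, 7.95 and 6.29. The arrays of a genotype thus differed in sex-linked transcripts, and with Xist minus the mean of 3 Y-linked genes as a covariate no flank gene described below passed the threshold either. Pearson's r across all genes was 0.982 to 0.984 in 6 pairs of arrays of 1 genotype and 0.981 to 0.987 in 9 pairs across genotypes. The number of arrays limited the precision of every value.

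Genes that lie close together on a chromosome are inherited together unless recombination separates them, so mice selected for an engineered allele also carry the DNA that surrounds it. Neighbouring genes can in addition share promoters, enhancers or a chromatin domain. The stretch examined here holds unrelated genes, among them the tumour suppressor Rb1, signalling proteins of leukocytes, subunits of the transcription machinery and many genes used in brain, testis or lung. In the knockout arrays the deletion and the chromosome segment around it are always present together. Whether that segment differs from the one in Ctrl is not shown here. If it does, the parts of deletion and segment in a difference cannot be told apart.

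The deleted microRNAs are shown because they define the genotypes. Their mature 5′ arms, from RefSeq (GRCm38.p6), begin with the same seed, bases 2 to 8, given in capitals. Both lie on the minus strand, miR-15a-5p at chr14:61632075-61632096 and miR-16-5p at chr14:61631936-61631957.
mmu-miR-15a-5p: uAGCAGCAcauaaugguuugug
mmu-miR-16-5p: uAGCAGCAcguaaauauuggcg

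Along the flank, no gene of the 147 passed the threshold, an adjusted p of 0.05 over all 19938 genes (limma with Benjamini-Hochberg adjustment), and the adjusted p of every one was 0.999. Over all genes 4 (0.0201%) passed, namely the left-out Gfra2, Mtmr9 and Rcbtb2 of this stretch and the deleted Mir15a. The rule set all of these aside, so the absence of calls among the kept genes was fixed in advance. The genes of the flank differed between genotypes by a median of -0.01 on the log2 scale (knockout minus Ctrl), the same as the median of -0.01 over all genes. The median size of the difference, without its sign, was 0.11 in the flank and 0.11 over all genes, and its 95th percentile was 0.38 against 0.37. With the 6 left-out genes added the 95th percentile was 0.59, so the likeness of 0.38 and 0.37 holds only for the genes that the rule kept. Of the 147 genes, 68 had a positive and 79 a negative difference. The most negative was that of Cysltr2 at -0.79 and the most positive that of Ccdc122 at 0.75. The difference along the chromosome, plotted in gene order, showed 5 of the 6 left-out genes with differences larger in size than those of all kept genes, and Dnajc15 next to Cysltr2 in size.

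**Figure D1:**
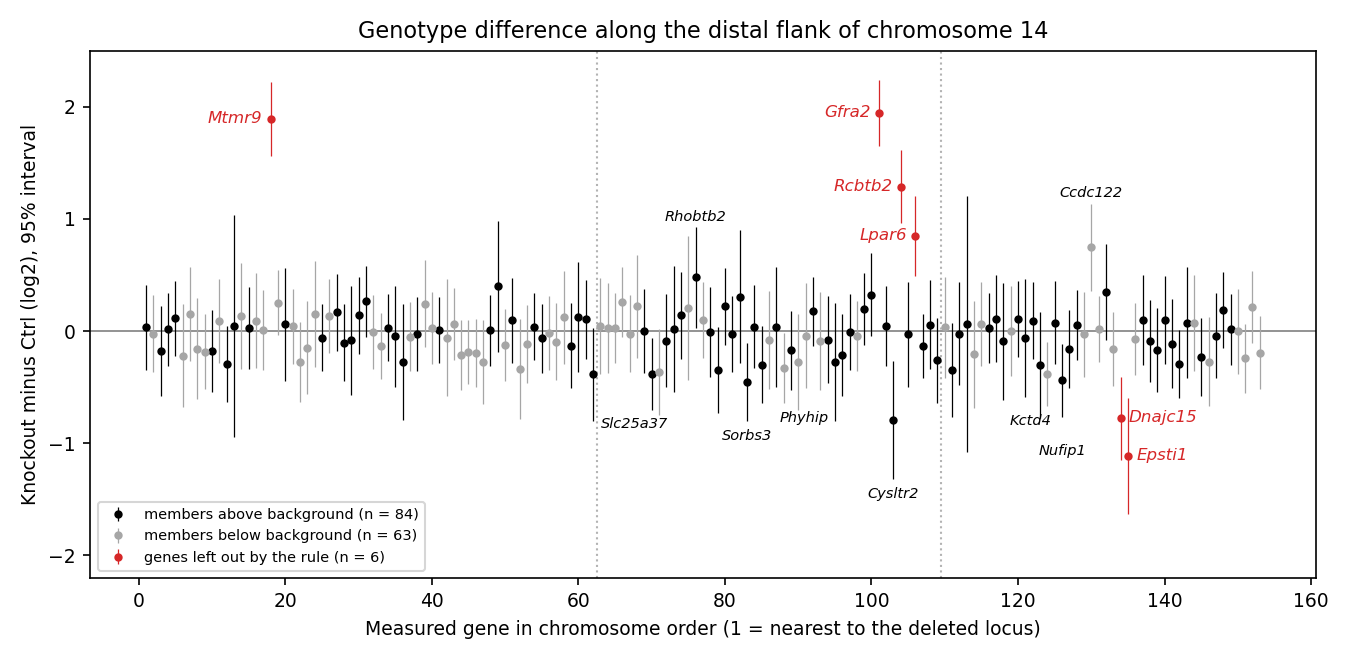
Knockout minus Ctrl difference (log2, vertical axis) with its 95% interval from limma for the 153 measured genes in chromosome order (horizontal axis, 1 nearest to the deleted locus); black points are the 84 genes above background, grey points the 63 below it, red points the 6 left-out genes, and dotted lines mark 68 and 74 Mb. Mtmr9, Gfra2, Rcbtb2 and Lpar6 lie between 0.85 and 1.95, Dnajc15 and Epsti1 at -0.78 and -1.11, and the kept genes between -0.79 and 0.75.

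The 95% intervals show how precisely each difference was measured, gene by gene, without adjustment for the 147 genes. In 143 of the 147 genes the 95% interval of the difference lay entirely within a log2 change of 1 in either direction, and in 70 within 0.5. Over all genes the shares were 97.7% and 52.4%, beside 97.3% and 47.6% in the flank. The 4 genes whose intervals reached past 1 were Cysltr2, Ccdc122, Fdft1 and the predicted gene Gm10847. The standard errors of the flank genes had a median of 0.16 and ran from 0.13 to 0.51. Differences of dim probe sets are compressed on arrays, so that the interval of a gene below background bounds the measured value and not the change in transcript. Of the 147 genes 84 (57.1%) lay above background, beside 54.6% of all genes.

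At an unadjusted p under 0.05 by limma, 8 flank genes were found, 2 higher (beside 1.55% of all genes) and 6 lower (beside 1.91%) in the knockout. That is 5.44% of the flank, beside 3.47% of all genes, and none of these genes was a call after adjustment. Without Ctrl or knockout arrays in turn the count ran from 6 to 13, the highest without knockout replicate 1. In 18 genes (12.2%) the 3 knockout values all lay on one side of the 3 Ctrl values, beside 8.33% of all genes. Of these 18, 5 were higher in the knockout, beside 3.68% of all genes, and 13 lower, beside 4.65%. Of the 84 genes above background, 9 (10.7%) had no overlap, beside 7.60% of all genes above background.

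Cysltr2, a receptor for cysteinyl leukotrienes, lay directly before the left-out Rcbtb2 in gene order. It read 5.18, 4.999 and 4.46 in the knockout and 5.63, 6.07 and 5.32 in Ctrl arrays. All 3 knockout arrays lay below all Ctrl arrays, and knockout replicate 3 was the lowest of the 6. The means were 4.88 ± 0.38 and 5.67 ± 0.38 (SD, n = 3 arrays each), a difference of -0.79 (SE 0.24, 95% interval -1.32 to -0.27, limma unadjusted p = 0.00751, adjusted p = 0.999). Without knockout replicate 3 the difference was -0.58, and without Ctrl replicate 2 it was -0.60.

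Nufip1, a nuclear protein involved in the assembly of small nucleolar ribonucleoproteins, read 5.38, 5.26 and 5.40 in the knockout and 5.90, 5.57 and 5.90 in Ctrl. The groups did not overlap, and the knockout arrays lay within a narrow range. The difference was -0.44 (SE 0.15, limma unadjusted p = 0.0136, adjusted p = 0.999). Sorbs3 (vinexin), an adaptor of focal adhesions, read 4.81, 4.97 and 4.53 in the knockout and 5.34, 5.15 and 5.17 in Ctrl, again without overlap. Its difference was -0.46 (SE 0.16, limma unadjusted p = 0.0158, adjusted p = 0.999). Slc25a37, or mitoferrin-1, carries iron into mitochondria and is best known from red cell precursors. It read 5.29, 5.06 and 5.06 in the knockout and 5.63, 5.53 and 5.39 in Ctrl, with every knockout array below every Ctrl array. The difference was -0.38 (SE 0.14, limma unadjusted p = 0.0234, adjusted p = 0.999). The erythroid markers had a median difference of -0.07, and their part in the value of Slc25a37 was not tested.

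Rhobtb2, which encodes a protein with BTB domains, was the only gene above background with a positive difference and an unadjusted p under 0.05. It read 4.23, 4.93 and 4.25 in the knockout and 4.01, 4.12 and 3.84 in Ctrl. The groups did not overlap, but knockout replicate 2 stood above the other knockout arrays, and all 3 Ctrl values lay under the background level. The difference of 0.48 (SE 0.20, limma unadjusted p = 0.0397, adjusted p = 0.999) was 0.25 without knockout replicate 2.

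The remaining 3 genes of the 8 lay below background in every array. Ccdc122, which encodes a coiled-coil protein, had the smallest p of the flank. It read 3.61, 3.93 and 3.87 in the knockout and 2.99, 3.36 and 2.83 in Ctrl, with all knockout arrays higher. The difference was 0.75 (SE 0.17, 95% interval 0.36 to 1.14, limma unadjusted p = 0.00167, adjusted p = 0.999). Lacc1, a multifunctional metabolic enzyme of macrophages, is transcribed away from Ccdc122 on the opposite strand, and the 300-base promoter windows of the pair in RefSeq share 254 bases. Lacc1 read 2.61, 2.63 and 3.06 in the knockout and 2.97, 2.65 and 2.76 in Ctrl, with overlapping groups and a difference of -0.03 (95% interval -0.41 to 0.35). Kctd4, a BTB domain protein, read 3.05, 3.11 and 3.09 in the knockout and 3.41, 3.54 and 3.44 in Ctrl (difference -0.38, SE 0.13). Phyhip, known from brain, read 3.00, 2.91 and 3.16 against 3.34, 3.24 and 3.48 (difference -0.33, SE 0.14). Both were lower in all 3 knockout arrays.

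**Figure D2:**
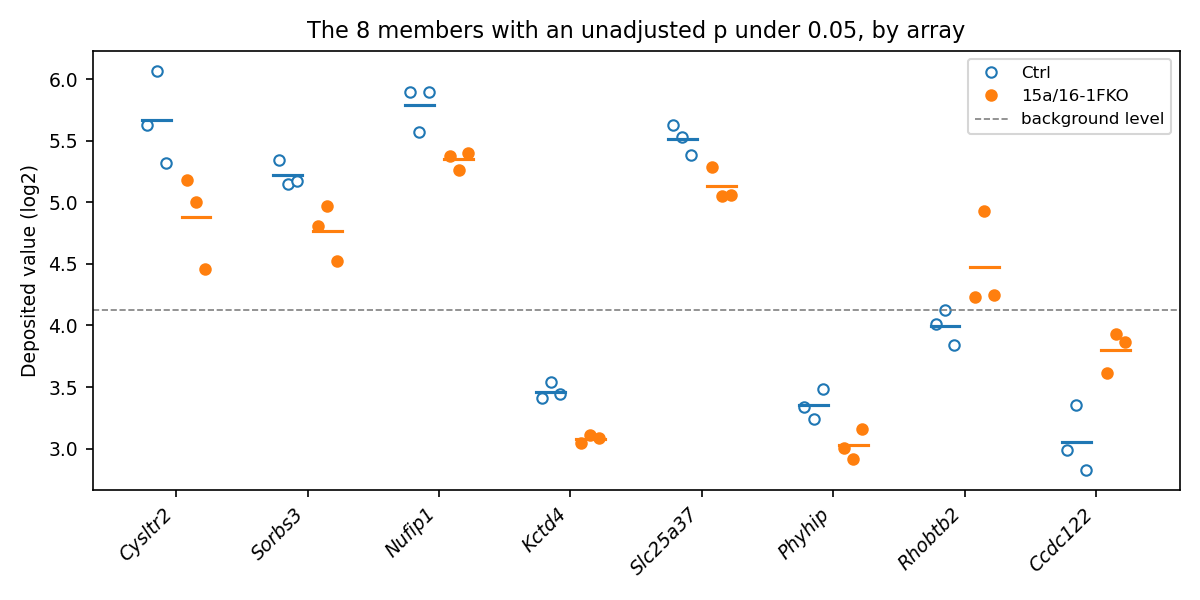
Deposited log2 value (vertical axis) of the 8 flank genes with an unadjusted limma p under 0.05 in each array; open blue points are Ctrl, filled orange points 15a/16-1FKO, short lines the means of 3 arrays, and the dashed line the background level of 4.13. The genotypes do not overlap in any of the 8, and Kctd4, Phyhip and Ccdc122 lie below the dashed line in all 6 arrays.

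The bases before the start sites of Cysltr2 and Nufip1 are shown because these genes had the smallest unadjusted p-values among flank genes above background, and because c-Myb, a transcription factor, stands in the title of the study. Each is the 250 bases before the start site from RefSeq (GRCm38.p6), 5′ to 3′ on the gene's strand. Cysltr2 is on the minus strand at chr14:73049115-73049364 and Nufip1 on the plus strand at chr14:76110641-76110890. Capitals mark the letters CAACTG, the variant TAACTG, the variant CAACGG or the variant TAACGG on either strand, the core recognised by MYB proteins.
Cysltr2: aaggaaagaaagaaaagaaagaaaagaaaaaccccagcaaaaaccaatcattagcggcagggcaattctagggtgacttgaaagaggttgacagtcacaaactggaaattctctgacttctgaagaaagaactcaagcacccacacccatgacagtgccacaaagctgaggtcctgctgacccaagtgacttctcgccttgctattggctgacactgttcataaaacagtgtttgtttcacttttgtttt
Nufip1: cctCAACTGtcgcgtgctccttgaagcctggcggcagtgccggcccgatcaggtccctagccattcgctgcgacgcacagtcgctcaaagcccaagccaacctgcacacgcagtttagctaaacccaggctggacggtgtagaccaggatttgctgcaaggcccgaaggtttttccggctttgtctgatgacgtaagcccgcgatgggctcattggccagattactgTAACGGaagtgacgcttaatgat
Nufip1 held 2 matches, CAACTG beginning 247 bases and TAACGG beginning 23 bases before the start site, and Cysltr2 held 0. Of 66 such windows of 52 flank genes found in the table, 25.8% held the letters, beside 23.7% of 32851 windows of all genes. The match is a description of letters.

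The nearest neighbours of the left-out genes were read next, to set the large differences of the stretch beside those of adjacent genes. Since the rule had set the strongest differences aside, weaker ones in the kept neighbours were fixed in advance. The values below are descriptions. Fam167a and Xkr6 flank Mtmr9, whose values were 8.43, 8.02 and 8.17 in the knockout and 6.37, 6.27 and 6.31 in Ctrl. Fam167a, below background in every array, differed by 0.01 (95% interval -0.35 to 0.36). Xkr6, a relative of the XK membrane protein, read 3.70, 3.79 and 3.88 in the knockout and 3.57, 3.54 and 3.50 in Ctrl. These groups did not overlap, and the difference was 0.25 (SE 0.13, limma unadjusted p = 0.0809), but all values were below background. Neither neighbour had a difference near the 1.89 of Mtmr9, which the rule had fixed, and both lay below background.

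Gfra2, a receptor subunit for neurturin with a difference of 1.95, lay between Dok2 and Fndc3a. Dok2 is an adaptor that dampens signalling from tyrosine kinases in blood cells. It read 7.16, 7.27 and 7.04 in the knockout and 6.55, 7.08 and 6.86 in Ctrl. Knockout replicate 3 lay just below Ctrl replicate 2, so the groups overlapped, and the difference was 0.32 (SE 0.17, 95% interval -0.05 to 0.69, limma unadjusted p = 0.0795). Fndc3a differed by 0.04 (95% interval -0.32 to 0.40).

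Rcbtb2 at 1.29 and Lpar6 at 0.85 enclosed Rb1 in gene order. Lpar6, a receptor for lysophosphatidic acid, lies within Rb1, which encodes the retinoblastoma protein that restrains entry into S phase. Rb1 read 6.80, 6.42 and 6.50 in the knockout and 7.04, 6.52 and 6.26 in Ctrl, with overlapping groups. Its difference was -0.03 (95% interval -0.50 to 0.44), an interval that holds neither neighbour's value. Itm2b, an abundant membrane protein on the far side, read 9.95, 9.84 and 9.95 in the knockout and 10.04, 10.06 and 10.04 in Ctrl. It was lower in all 3 knockout arrays by 0.14 on average, a small difference with a 95% interval of -0.42 to 0.15. Thus Cysltr2, next to Rcbtb2, was lower where Rcbtb2 was higher, and Rb1 lay near 0.

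Dnajc15 and Epsti1, with differences of -0.78 and -1.11, are adjacent. Directly before Dnajc15 lie the predicted genes Gm6994, above background, and Gm1587, below it. Gm6994 read 4.25, 4.53 and 4.91 in the knockout and 4.25, 4.005 and 4.39 in Ctrl, a difference of 0.35 (SE 0.19, limma unadjusted p = 0.0976) with overlapping groups. Gm1587 differed by -0.16 (SE 0.15). The nearest kept genes with an established symbol were Enox1, with a difference of 0.02 (95% interval -0.27 to 0.31), and Fam216b, with one of -0.07 (95% interval -0.39 to 0.26). Enox1 and Fam216b lay below background in all arrays.

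**Figure D3:**
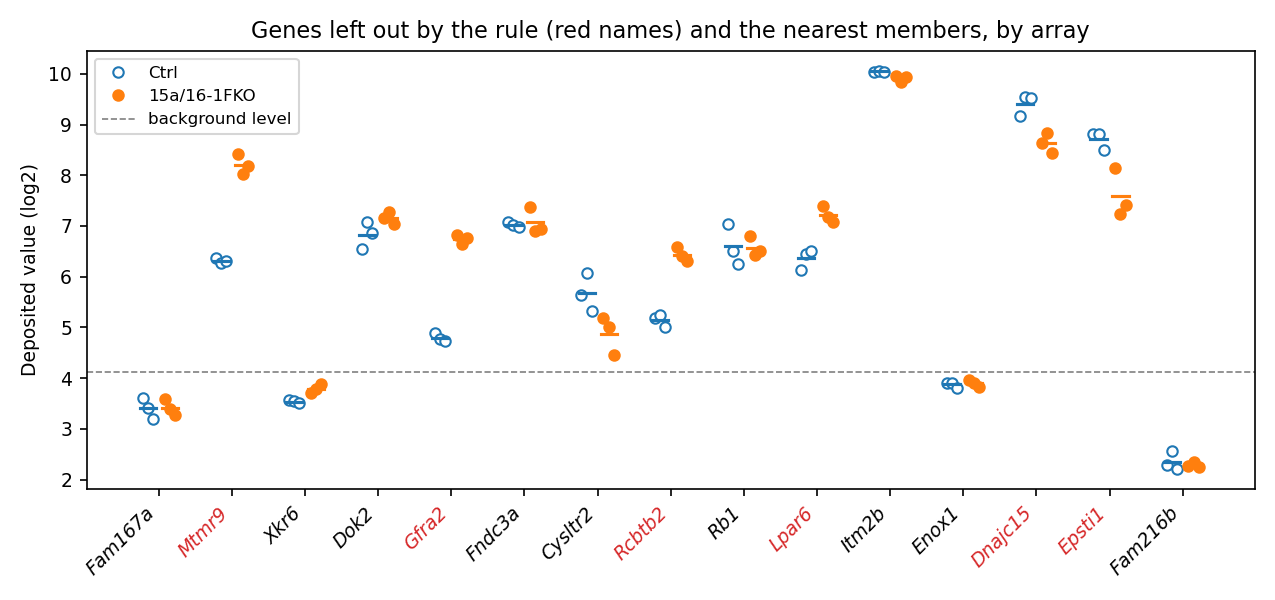
Deposited log2 value (vertical axis) in each array for the 6 left-out genes (red names) and the nearest kept genes other than predicted ones, in chromosome order; open blue points are Ctrl, filled orange points 15a/16-1FKO, short lines the means of 3 arrays, and the dashed line the background level of 4.13. The genotypes are apart in every left-out gene, while Fam167a, Dok2, Fndc3a, Rb1, Enox1 and Fam216b overlap. The rule had set the strongest differences of the stretch aside.

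Leukocyte signalling genes of the flank went both ways. Of 20 genes listed, 11 lay above 0 and 9 below, around a median of 0.02, and none passed the threshold (limma). Here and in the lists below, that none passed was fixed by the rule, which had set all calls aside. After centring of each array on its median, 14 of the 20 were positive. Ptk2b, the tyrosine kinase PYK2, read 7.65, 7.80 and 7.80 in the knockout and 7.83, 7.83 and 7.58 in Ctrl, and differed by 0.01 (95% interval -0.31 to 0.32). Lcp1, the actin-bundling protein L-plastin of leukocytes, read 10.09, 10.04 and 9.84 against 9.87, 10.04 and 9.99. Its difference was 0.03 (95% interval -0.28 to 0.34), with full overlap of the groups. The calcineurin subunit Ppp3cc differed by 0.04 (95% interval -0.33 to 0.41) and the transcription factor Egr3, induced by receptor signalling in lymphocytes, by -0.01 (95% interval -0.41 to 0.40). The ETS factor Elf1 read 7.66, 7.66 and 7.32 in the knockout and 7.42, 7.42 and 7.23 in Ctrl, a difference of 0.19 (SE 0.15). Its groups overlapped through knockout replicate 3.

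Further members of that list differed in either direction. Dock5, an activator of Rac, read 7.12, 6.78 and 6.81 in the knockout and 7.39, 7.53 and 6.95 in Ctrl (difference -0.39, SE 0.18, limma unadjusted p = 0.0622). Trim35 differed by 0.40 (SE 0.26) and Pdlim2, which controls STAT and NF-kappaB proteins, by 0.30 (SE 0.26). Trim35 was lowest in Ctrl replicate 3 at 4.21, and Pdlim2 in knockout replicate 3 at 6.09, below all 3 Ctrl arrays. Without Ctrl replicate 3 the difference of Trim35 was 0.10. That of Pdlim2 was 0.61 without knockout replicate 3 and 0.13 without knockout replicate 2. Rgcc, a regulator of the cell cycle, was lower in all 3 knockout arrays, at 4.17, 4.21 and 4.08 against 4.55, 4.50 and 4.30 (difference -0.29, SE 0.14). The death receptor Tnfrsf10b, which binds TRAIL, differed by 0.20 (SE 0.29) and the Src family kinase Blk, characteristic of B cells, by 0.09 (SE 0.19), both below background on average.

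Genes of RNA synthesis, processing, DNA repair and translation lay slightly to the positive side. Of 19 measured, 14 lay above 0 and 5 below, around a median of 0.07, beside 47.9% positive over all genes, and none passed the threshold (limma). Above background lay 17 of the 19, and of all genes above background 51.0% were positive. The split of 14 and 5 was the same after centring each array on its median and after renewed quantile normalization. Xpo7, a nuclear transport receptor, read 7.89, 7.77 and 7.53 in the knockout and 7.58, 7.52 and 7.49 in Ctrl (difference 0.20, SE 0.14). Ccar2, an inhibitor of the deacetylase SIRT1, differed by 0.22 (SE 0.15), and the Integrator subunit Ints9 by 0.14 (SE 0.15). Tpt1, a translationally controlled protein abundant in most cells, was measured by 4 probe sets with differences between 0.01 and 0.09. Nufip1 had the most negative difference of the list, followed by the TFIIF subunit Gtf2f2 at -0.30 (SE 0.21).

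Genes of cell division stayed near 0. Of 8, 5 lay above 0 and 3 below, around a median of 0.02, none passed the threshold (limma) and none was without overlap. After centring 6 were positive, and after renewed quantile normalization 4. The mitotic kinase Pbk differed by 0.24 (SE 0.17), and Reep4, which clears membranes from mitotic chromosomes, by 0.18 (SE 0.14). The cohesin acetyltransferase Esco2 differed by 0.03 (SE 0.14) and Cdca2, a targeting subunit of protein phosphatase 1, by -0.13 (SE 0.17). Pbk and Esco2 lay below background.

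Metabolic and organelle genes lay to the negative side. Of 13, 4 lay above 0 and 9 below, around a median of -0.09, and none passed the threshold (limma). Above background lay 12 of the 13, beside 51.0% positive over all genes above background. The split of 4 and 9 was the same under both rescalings. Cathepsin B (Ctsb), a lysosomal protease, read 6.83, 6.48 and 6.56 in the knockout and 6.78, 6.95 and 7.03 in Ctrl (difference -0.30, SE 0.15, limma unadjusted p = 0.0795). The groups overlapped through knockout replicate 1. The metal transporter Slc39a14 differed by -0.30 (SE 0.15), the esterase Esd by -0.35 (SE 0.19) and Sucla2, a subunit of succinyl-CoA ligase, by -0.26 (SE 0.17). A second probe set of Esd differed by -0.49 (SE 0.29), in the same direction. Bnip3l, a receptor for mitophagy, differed by 0.04 (95% interval -0.26 to 0.34) and its second probe set by -0.10. Msra, which repairs oxidised methionine, differed by 0.17 (SE 0.15).

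Genes of membrane traffic, the cytoskeleton and glycosylation numbered 15, 8 above 0 and 7 below, around a median of 0.01, and none passed the threshold (limma). After renewed quantile normalization 7 were positive and the median was -0.02. In 5 of the 15 the groups did not overlap, beside 8.33% of all genes. These were Sorbs3, Itm2b, Xkr6, Extl3 and Bin3. Extl3, a glycosyltransferase of heparan sulfate synthesis, read 6.26, 6.46 and 6.21 in the knockout and 5.95, 6.17 and 6.00 in Ctrl (difference 0.26, SE 0.14). Bin3, a BAR domain protein, read 6.32, 6.32 and 5.85 in the knockout and 6.48, 6.68 and 6.37 in Ctrl (difference -0.35, SE 0.17). Extl3 was thus higher and Bin3 lower in all 3 knockout arrays.

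Genes known mainly from other tissues were mostly below background, as 28 of 37 were. Their differences lay above 0 in 12 and below in 25, around a median of -0.04, beside a median of -0.02 over all genes below background, and none passed the threshold (limma). The excess of negative values was not kept, since 18 were positive and 19 negative under either rescaling. The list includes neurofilament genes, the sperm protein gene Adam2 and the heart factor Gata4, which at 0.03 (SE 0.16) lay near 0. Gulo, Adam2 and Ephx2 were adjacent in gene order and were each lower in all 3 knockout arrays, a run noticed after the values were seen. Gulo, of vitamin C synthesis, read 2.98, 3.04 and 3.06 against 3.40, 3.22 and 3.09. Adam2 read 2.30, 2.37 and 2.38 against 2.59, 2.55 and 2.47, and the epoxide hydrolase Ephx2 2.47, 2.43 and 2.67 against 2.77, 2.69 and 2.70. These differences, between -0.21 and -0.19, were of values below background. Ephx2 was counted with the metabolic genes. The 5 beta-defensin genes of the stretch, which encode antimicrobial peptides of epithelia, had a median difference of -0.16 and 1 of them lay above background.

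**Figure D4:**
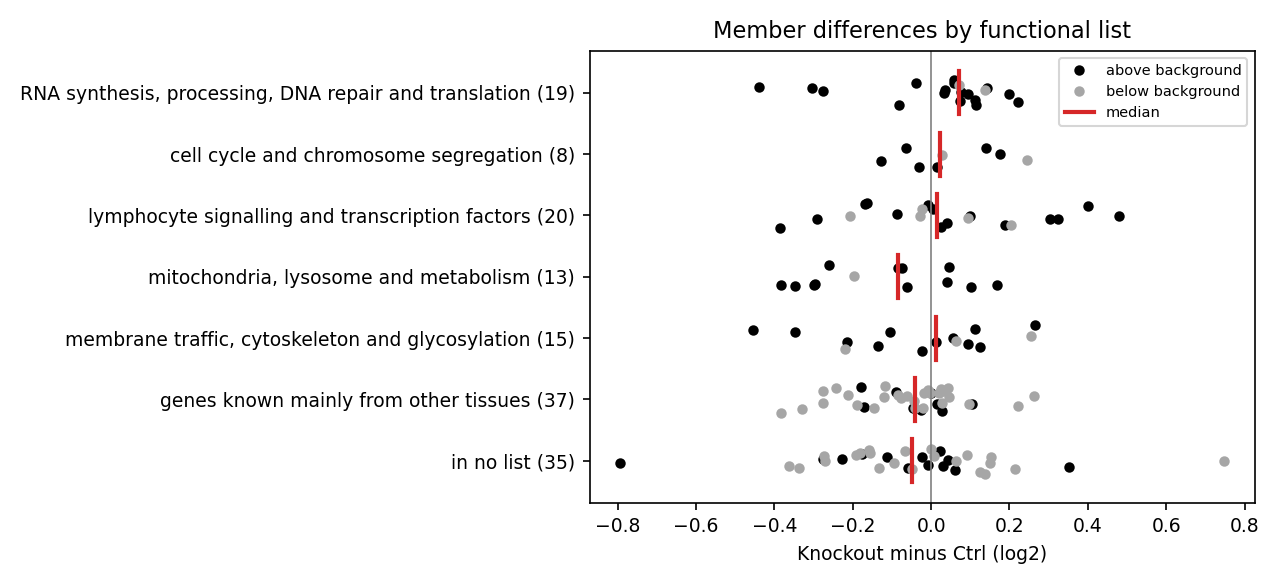
Knockout minus Ctrl difference (log2, horizontal axis) of the 147 flank genes, grouped by functional list with the number of genes in brackets; black points lie above background, grey points below it, and red bars are list medians. The medians lie between -0.09 for metabolic and organelle genes and 0.07 for RNA genes.

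By position, the flank was cut into 3 stretches of 6 Mb. In the 61 genes nearest to the deleted locus no gene had an unadjusted p under 0.05 by limma, and the largest difference was the 0.40 of Trim35, while 5 genes (8.20%) had no overlap. Over all genes the shares were 3.47% and 8.33%. In the next 44 genes, from 68 to 74 Mb, 5 genes had an unadjusted p under 0.05 (11.4%) and 8 had no overlap (18.2%). In the 42 genes from 74 to 80 Mb there were 3 genes with an unadjusted p under 0.05 (7.14%) and 5 without overlap (11.9%). The medians of the stretches were each -0.01. Of the left-out genes, Mtmr9 lies in the first stretch, Gfra2, Rcbtb2 and Lpar6 in the second, and Dnajc15 and Epsti1 in the third. The difference between stretches was not tested.

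A window of 18 Mb on the other side of the deleted locus held 215 genes under the same rule. The 6 left-out genes all lie in the distal flank, so the other window was not trimmed of its strongest differences. The median size of difference of the 215 genes was 0.13, beside 0.11 in the trimmed distal flank. Of the 215, 0 passed the threshold (limma) and 12 had an unadjusted p under 0.05 (5.58%). In 28 (13.0%) the groups did not overlap, beside 12.2% in the distal flank. Over all genes 3.47% had an unadjusted p under 0.05 and 8.33% no overlap. When the 6 left-out genes were counted with the distal flank, 3 of 153 genes passed the threshold, Gfra2, Mtmr9 and Rcbtb2, and 8 of 153 (5.23%) differed by more than 0.5, beside 2 of 147 (1.36%) without them and 1.63% of all genes. Of the 153, 9.15% had an unadjusted p under 0.05 by limma and 24 (15.7%) had no overlap. When every one of the 35556 probe sets was fitted, none of these 3 calls held, with limma adjusted p-values of 0.0809 for Gfra2, 0.151 for Mtmr9 and 0.539 for Rcbtb2, and the call of Rcbtb2 was also lost when any 1 array was left out (limma adjusted p of 0.137 to 0.197). Whether the sides differ was not tested.

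**Figure D5:**
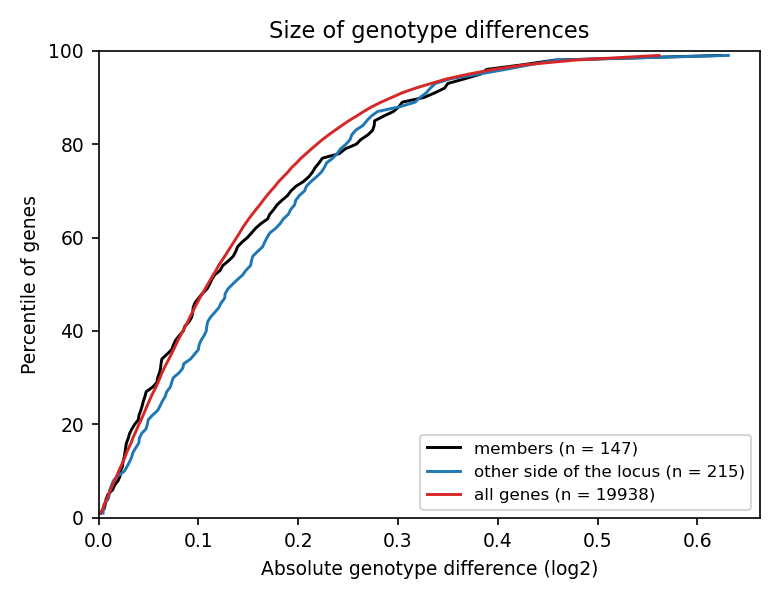
Percentile of genes (vertical axis) against the absolute genotype difference (log2, horizontal axis) for the 147 flank genes (black), the 215 genes on the other side of the locus (blue) and all 19938 genes (red). The curves have medians of 0.11, 0.13 and 0.11 and are drawn to the 99th percentile, at 0.62, 0.63 and 0.56. The black curve does not hold the 6 left-out genes.

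Where a flank gene had more than 1 probe set, as 7 did, the probe sets of Akap11, Bnip3l, Fdft1, Med4 and Tpt1 gave differences between -0.10 and 0.12. The probe sets of Zfp395, a zinc finger protein gene, disagreed. Its brighter probe set read 6.29, 6.20 and 6.14 in the knockout and 6.28, 6.14 and 6.12 in Ctrl, a difference of 0.03 (SE 0.13). Its dimmer probe set read 4.97, 4.29 and 4.72 against 5.24, 5.31 and 5.46, lower in all 3 knockout arrays by 0.68 on average (SE 0.19, limma unadjusted p = 0.00511). The sources used here do not show which transcripts each detects.

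Fdft1 (squalene synthase, of cholesterol synthesis) had the largest SD of a single genotype, 1.10 in Ctrl. It read 5.55, 5.06 and 5.14 in the knockout and 3.93, 5.88 and 5.80 in Ctrl, so that Ctrl replicate 1 stood apart. Its second probe set was also lowest in Ctrl replicate 1, at 4.37 against 5.33 and 5.09 in the other Ctrl arrays. The difference of Fdft1, 0.05, had a 95% interval of -0.94 to 1.04. Over the 84 genes above background, the array means were 6.08, 6.00 and 5.98 in the knockout and 6.06, 6.08 and 6.01 in Ctrl, with overlapping groups.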

How the data were processed

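For 6 arrays the log2 levels deposited by the authors, 1 per probe set, were used as given. They ran from 0.74 to 13.60 with array medians of 4.23 to 4.33. Per the submitters' processing notes, which give no role or order, RMA and Partek 6.6 were used. The sources used here do not give the table's genome build. Of 35556 probe sets, 21789 had 1 symbol in GEO's platform annotation, 1621 several and 12146 were not listed. Each of 19938 genes was represented by its probe set with the highest mean over all arrays. Genes were placed by RefSeq on GRCm38.p6. limma 3.58.1 in R 4.3.3 was fitted with genotype as its term, two-sided, with Benjamini-Hochberg adjustment over all genes and a threshold of 0.05, and was tested on simulated data. Named were, among flank genes above background, the 10 with the smallest p in each direction, then the 10 with the highest means, the neighbours of left-out genes and a list of interest, without predicted genes. Any other gene was picked for the text with its values known. The flank and the lists were chosen with earlier results of these data known. Same-numbered arrays of the 2 groups correlated at 0.048, 0.148 and 0.141 in their deviations from the group means. Differently numbered arrays correlated at -0.186 to 0.045, so the same-numbered values were the highest. The labels give no batch, and the numbers were not taken as pairs. Whether same-numbered arrays were handled together is not known. Alternatives were rescaling, other probe set choices, other priors, a sex-linked covariate, a replicate block and leaving out each array.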

Additional observations from a re-analysis of the deposited data

How the results depend on the processing

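The rule had set aside every gene of the stretch that passed the threshold in the main fit (limma). The absence of calls among the kept genes was thus fixed in advance there. No flank gene passed the threshold under any alternative run (limma) either, and 3 of 153 did with the left-out genes added. Those 3 calls became 0 when every probe set was fitted, a fit in which no probe set passed at all, that of Mir15a included. They became 2, without Rcbtb2, under the replicate block, the sex-linked covariate, the trended and robust prior and without any 1 array. The 8 genes with an unadjusted p under 0.05 became 5 when only genes above background were fitted, which tests fewer genes, 14 with the left-out genes added and 12 with a replicate block, whose pairing the array numbers did not establish. Leaving out each array gave 6 to 13, the most without knockout replicate 1, and the other alternatives 8 to 11. The 18 genes without overlap became 9 among genes above background, 24 with the left-out genes, and 18 to 23 under rescaling or with the dimmest probe sets. The median difference stayed between -0.03 and 0.03, and centring turned its sign in the flank and over all genes alike, to 0.03 in each, with 55.8% of flank genes positive in place of 46.3%. For 39 named genes, 24 kept their sign in all 11 alternatives, and 32 of 429 recomputed differences had the other sign. The lowest adjusted p of any of them (limma) was 0.971. With 3 arrays a group, values below background bound little.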

Other observations

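Gm10847, a predicted gene of the flank named here after its values were seen, read 8.30, 7.20 and 6.45 in the knockout and 8.14, 7.35 and 6.27 in Ctrl. In both genotypes the array numbered 1 was the highest and the array numbered 3 the lowest. Its genotype difference was 0.06, with a 95% interval of -1.08 to 1.20, and its SD within genotypes was up to 0.94.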
